A study of Mus musculus with 15 samples.

Results

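The samples compared here were sorted brain microglia collected 60 days after injury (60 dpi, n = 3) and 2 days after injury (2 dpi, n = 4), 7 of the 15 samples of the study, chosen by their injury label. All 547 endogenous genes of the panel were examined. The study followed the inflammatory gene expression of microglia over time after controlled cortical impact (CCI), an open-skull contusion of the parieto-temporal cortex made with a pneumatic piston in anesthetized mice. All mice were male C57BL6J, a wild-type inbred strain, a few months old at injury (the methods and the results of the study give different ages), with no genetic change and no drug treatment. Mice at 2 dpi were randomized between injury and sham surgery, whereas mice at 60 dpi were injured without a randomization scheme and were older at collection than mice at 2 dpi. The sham group (n = 4) was collected as 2-day shams, and a 14 dpi group (n = 4) completed the series. Whole brains were dissociated enzymatically, and cells with high CD11b and low to intermediate CD45 staining were sorted, a gate meant for microglia that can also hold some infiltrating myeloid cells. Each sample is named by its group and a number. The study gives its group sizes in mice, and the labels name no animal for a sample.

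An nCounter mouse panel of immune genes was used, in which labeled reporters bind transcripts of the sorted cells and are tallied one by one, with no amplification step. Sham, 2 dpi and 14 dpi, 12 samples in all, were read together in 1 run. Of the 15 samples only the 3 of 60 dpi were read in a second run, in its lanes 9 to 11. Time after injury and run therefore cannot be told apart in any comparison with 60 dpi below. Endogenous counts summed to 95257 to 191160 per sample at 2 dpi and to 169784 to 226892 at 60 dpi. A gene was called above background in a sample when its raw count exceeded the mean plus 2 SD of the 8 negative control probes, a limit of 25.9 to 33.1 counts at 2 dpi and of 57.1 to 67.7 at 60 dpi. Negative control NEG_B alone gave 50 to 72 counts at 60 dpi and 7 to 10 at 2 dpi. Without NEG_B the limit at 60 dpi was 39.7 to 47.8 counts. The number of genes above background was 322 to 338 per sample at 2 dpi and 276 to 291 at 60 dpi. Of the 547 genes, 359 were above background in at least 3 of the 15 samples and were tested, which left 188 untested.

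Microglia are the resident macrophages of the brain. They survey the tissue through receptors for injury signals, respond to injury with early cytokines and chemokines, and can take on an antigen-presenting state with MHC class II on the surface. The comparison asks how the late state after contusion differs from the early one. Bulk counts of this kind cannot separate fewer cells of a type from less RNA per cell.

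MHC class II genes were the most increased group at 60 dpi, and early inflammatory genes such as Tnf, Ptgs2 (the inducible cyclooxygenase) and the neutrophil-attracting chemokines Cxcl1 and Cxcl3 were lower. In edgeR's quasi-likelihood test, 166 of the 359 genes were higher at 60 dpi (46.2%) and 36 were lower (10%), at an adjusted p under 0.05. Of these, 76 were higher by more than 1 on the log2 scale and 25 were lower by more than 1. Every 60 dpi sample lay above every 2 dpi sample in 179 genes (49.9%) and below in 43 (12%). By detection, 250 of the tested genes were above background in all 7 samples, 7 only at 60 dpi and 55 only at 2 dpi. The background limit was higher at 60 dpi, as given above. Of the 55 genes, 17 were called lower, 5 were called higher and 33 were not called.

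The balance between higher and lower genes depended on how samples were scaled. With positive controls and housekeeping genes (the control-based scaling, used for all values unless another is named), the median tested gene was higher at 60 dpi by 0.49 on the log2 scale, and 82.2% of the calls were higher. With TMM factors, which center the bulk of the genes, the median was 0.09, 83 genes were higher (23.1%) and 70 lower (19.5%), and 54.2% of the calls were higher. With positive controls alone the median was 0.04, and 28 genes were higher and 27 lower. The methods of the study also adjust for background, which this scaling does not. With the negative controls subtracted 119 genes were higher and 56 lower, and with an additive-background model 162 and 70, against 166 and 36. Several genes named below reached the test only because samples at 60 dpi were counted in the filter, and they are given without a p-value. The list counts and shares below include them. Of the other rises named below, Cd22 aside, only those of Cd74, H2-Aa, H2-Ab1, H2-Eb1, Psmb9, Tgfb2, Ccl7, Ccl22, Tnfsf10, Cybb, Il13, Phlpp1, Defb1, Cd163, Cd3d, Cradd, Abcb1a and Vcam1 were called with positive controls alone too. The falls named below were called with positive controls alone as well, except those of Ly86, Psmb7, Tlr2, Csf2rb and Cd36. The housekeeping genes themselves moved apart between the groups: of 14, 5 lay higher in every 60 dpi sample and 4 lower. Tbp was higher by 1.06 on the log2 scale and Hprt by 0.76, whereas Eef1g differed by -1.44 and Gusb by -1.20. All 83 genes higher with TMM factors were among the 166, and all 36 genes called lower were also called lower with TMM factors. A gene that moved by about 0.49 moved no more than the median gene. Calls lost with TMM factors are named as such.

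**Figure D1:**
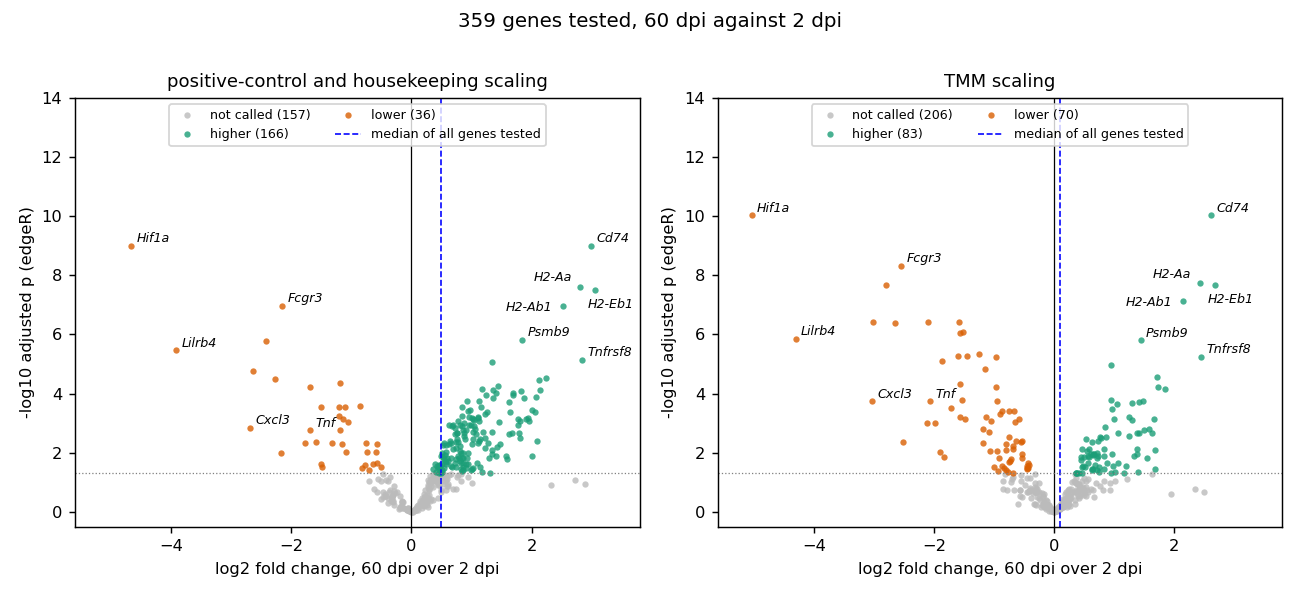
Each point is 1 of the 359 genes tested, with the log2 fold change of 60 dpi over 2 dpi on the x axis and the -log10 adjusted p on the y axis, under the control-based scaling (left) and TMM factors (right). The blue dashed line marks the median gene, at 0.49 on the left and 0.09 on the right, and the class II genes, Hif1a and Lilrb4 lie at the edges in both panels.

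MHC class II molecules present peptides from engulfed material to CD4 T cells. Cd74 is the invariant chain that guards the binding groove. H2-Aa, H2-Ab1 and H2-Eb1 encode alpha and beta chains of the classical molecules. H2-DMa and H2-Ob encode chains of accessory molecules that regulate peptide loading. All 6 tested class II genes of the 9 on the panel were higher at 60 dpi, 5 of them also with TMM factors, with a median log2 fold change of 2.67 against 0.49 over all genes tested. The 3 untested genes, H2-Ea-ps, H2-DMb2 and Ciita, were above background in none of the 7 samples. B cells and border macrophages also carry class II. Of B cell markers Ms4a1 and Cd79a were above background in none of the 7 samples, whereas Cd22 was higher at 60 dpi. The study counts Cd22 among the sensing genes of microglia as well. Cd163, a border macrophage marker, was also higher at 60 dpi (values below). The part of either cell type in the class II result was not tested.

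Cd74 gave 896, 773, 707 and 507 at 2 dpi and 6148, 5411 and 5663 at 60 dpi (normalized counts, as for all sample values below, in the order of sample numbers). The lowest value at 60 dpi was 5411 and the highest at 2 dpi 896, and the means differed 7.97-fold (log2 fold change 2.99, SE 0.20, adjusted p = 1.03e-09). H2-Eb1 gave 250.1, 191, 167 and 117 at 2 dpi and 1562, 1387 and 1549 at 60 dpi, 8.27-fold higher (adjusted p = 3.08e-08). H2-Aa gave 223, 212, 189 and 138 at 2 dpi and 1399, 1196 and 1413 at 60 dpi, a 7.01-fold difference (adjusted p = 2.46e-08). In all 3 genes every sample at 60 dpi lay far above every sample at 2 dpi, where sample 1 was the highest and sample 4 the lowest. H2-Ab1 rose 5.75-fold, from 218 ± 58.1 at 2 dpi (SD, n = 4) to 1256 ± 69.0 at 60 dpi (SD, n = 3; adjusted p = 1.08e-07). These 4 genes were called higher under every scaling tried, with log2 fold changes of 2.15 to 2.68 with TMM factors. The genes of the accessory molecules moved less: H2-Ob was 2.06-fold higher (adjusted p = 0.00159; 0.011 with TMM factors), and the call of H2-DMa, 1.54-fold higher (adjusted p = 0.00521), was lost with TMM factors (adjusted p = 0.184).

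Within the first run, the same 4 genes were already higher at 14 dpi than at 2 dpi, and these comparisons share the 2 dpi samples. Of the 359 genes, 142 were higher (39.6%) and 10 lower (2.79%) at 14 dpi than at 2 dpi, a comparison not run with TMM factors. Cd74 lay at 1622 to 2054 at 14 dpi, above all samples at 2 dpi, with a log2 fold change of 1.37 (SE 0.18, adjusted p = 2.83e-05). The log2 fold change of 14 dpi over 2 dpi was 1.24 for H2-Aa, 1.17 for H2-Eb1 and 1.11 for H2-Ab1, with adjusted p of 0.000258, 0.000755 and 0.000673. At 2 dpi none of the 4 passed the test against sham (log2 fold changes of -0.33 to -0.15, lowest adjusted p 0.264). The order of the means was 2 dpi and sham, 14 dpi, 60 dpi, and only the last step crosses the runs.

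The promoters of the class II genes share a set of elements, among them the Y box, which the trimeric factor NF-Y binds. Promoter windows from 250 bases before to 50 after the start were taken from RefSeq (GRCm38.p6), where 407 of the 547 genes had a window. The windows of H2-Aa (chr17:34287774-34288073, minus strand) and H2-Eb1 (chr17:34305617-34305916, plus strand), those of the searched genes with the largest rises, are shown 5′ to 3′ with the Y box core GATTGG, on either strand, in capitals.
H2-Aa: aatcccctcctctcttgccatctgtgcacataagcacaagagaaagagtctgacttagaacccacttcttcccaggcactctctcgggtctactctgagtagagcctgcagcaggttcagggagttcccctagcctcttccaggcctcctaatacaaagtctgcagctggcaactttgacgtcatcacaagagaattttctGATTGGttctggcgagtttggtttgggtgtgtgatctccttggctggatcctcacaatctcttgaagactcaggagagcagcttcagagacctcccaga
H2-Eb1: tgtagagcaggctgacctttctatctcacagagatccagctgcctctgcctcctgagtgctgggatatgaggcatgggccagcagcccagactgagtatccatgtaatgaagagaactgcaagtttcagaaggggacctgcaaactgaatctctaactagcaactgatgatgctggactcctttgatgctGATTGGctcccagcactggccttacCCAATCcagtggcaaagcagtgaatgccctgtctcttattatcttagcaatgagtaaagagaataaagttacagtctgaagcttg
The core starts 49 bases before the start in H2-Aa and 60 bases before it in H2-Eb1, and H2-Eb1 holds a second copy as the reverse complement CCAATC, 35 bases before the start. All 4 tested class II genes whose windows were searched (H2-Aa, H2-Eb1, H2-Ob and H2-DMa) held the core on either strand, against 16.1% of all 32851 windows. H2-Ab1 had no entry. A match describes the letters and is not a measure of binding.

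**Figure D2:**
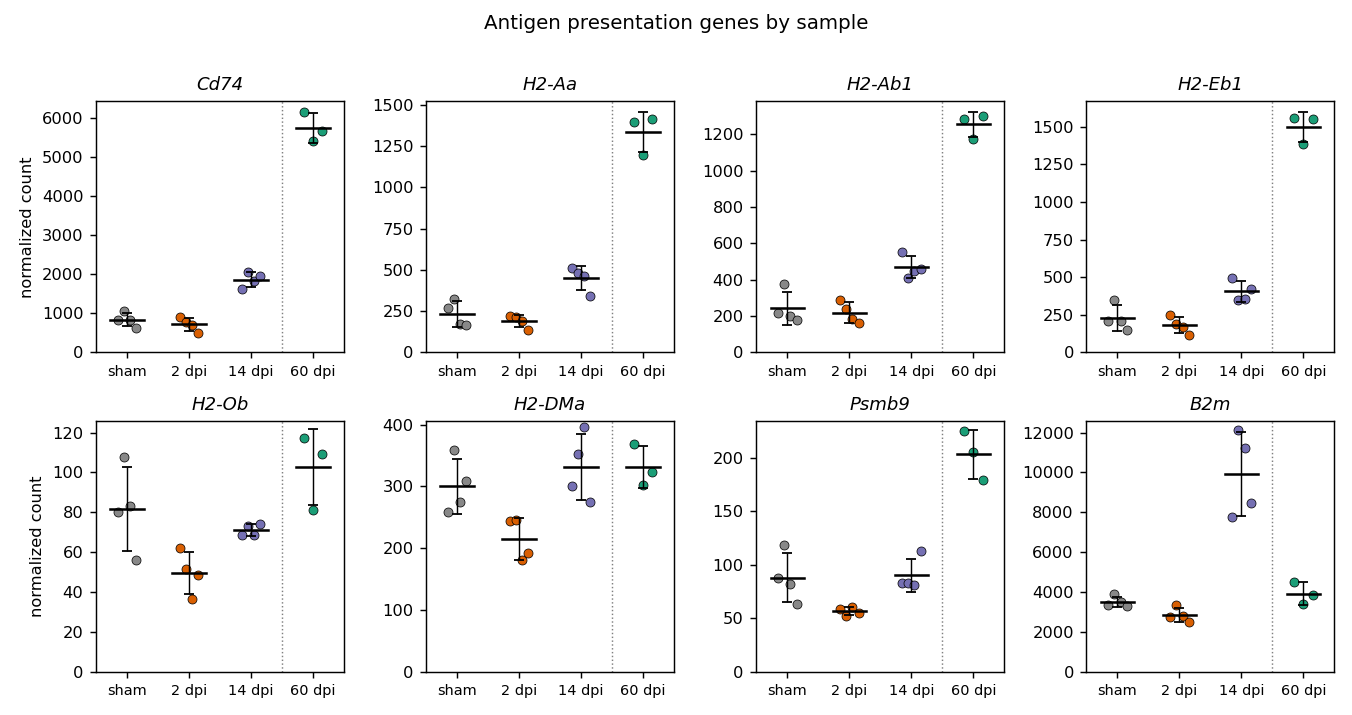
Normalized counts (y axis, linear) of 8 antigen presentation genes in each sample of the 4 groups (x axis), with the mean (bar) and SD (whisker). The dotted line separates the runs. Cd74, H2-Aa, H2-Ab1 and H2-Eb1 stand apart at 60 dpi from all other groups, and B2m is highest at 14 dpi.

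MHC class I molecules present peptides cut by the proteasome to CD8 T cells, and interferon exchanges some proteasome subunits for immune forms. Of 10 tested genes of this group, 5 were higher and 1 lower at 60 dpi, close to the 46.2% and 10% of all genes. Without 60 dpi sample 1, 2 were lower. Psmb9, an immune-type proteasome subunit, gave 58.6, 52.5, 60.8 and 54.7 at 2 dpi and 225, 205 and 179.8 at 60 dpi, with no overlap and a 3.59-fold difference (log2 fold change 1.84, SE 0.20, adjusted p = 1.53e-06; 1.56e-06 with TMM factors). H2-K1, a class I heavy chain, rose 2.18-fold (adjusted p = 0.000812; 0.013 with TMM factors), and Psmd7, a subunit of the proteasome cap, rose 1.92-fold (adjusted p = 0.000391). The constitutive subunit Psmb7 fell to 51.4 from 85.5 and was above background in none of the 60 dpi samples, by the limit that NEG_B raised. Tap1, which carries peptides to class I molecules, was 1.55-fold higher and B2m, the class I light chain, 1.38-fold higher, and both calls were lost with TMM factors (adjusted p = 0.218 and 0.688). The call of B2m was also lost without 2 dpi sample 1, 3 or 4 or 60 dpi sample 1 (highest adjusted p 0.128). The means of B2m were 2847 at 2 dpi, 9897 at 14 dpi and 3919 at 60 dpi.

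Interferons act through JAK kinases and STAT factors. Among 24 tested receptors, kinases and regulators of this pathway, 16 were higher and 1, Csf2rb, was lower at 60 dpi (a call lost without 60 dpi sample 3, adjusted p = 0.0548). That is 66.7% higher against 46.2% of all genes, and with TMM factors 8 were higher, 33.3% against 23.1%, and 1 lower. Without 2 dpi sample 3 or 60 dpi sample 1 the number higher dropped to 10. Stat5b gave 95.2, 102, 78.2 and 79.7 at 2 dpi and 254, 214 and 205 at 60 dpi and rose 2.52-fold (adjusted p = 8.79e-06; 1.08e-05 with TMM factors). Jak3, the kinase of the common gamma chain receptors, rose 2.38-fold, Ifnar1, a chain of the type I interferon receptor, 2.18-fold, and Jak1 1.80-fold (adjusted p = 0.000113, 0.000183 and 0.000281), and all 3 passed with TMM factors. Of 18 tested genes that interferon induces, 7 were higher, 1 lower and 10 not called, and with TMM factors 4 were higher and 4 lower. The shares higher, 38.9% and 22.2%, lay near those of all genes, 46.2% and 23.1%. Cxcl11, a T cell chemokine, was above background in no sample at 2 dpi (18.6 to 25.6) and in all 3 at 60 dpi (58.9 to 85.3), at least 2.99-fold higher. It passed the filter only with the 60 dpi samples counted. A fold given as at least was computed against the mean background limit of the group without a sample above it. Cxcl10, induced by the same signal, was lower (below).

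TNF is the prototype of the early inflammatory cytokines. Tnf gave 2152, 2044, 1666 and 1080.1 at 2 dpi and 740.4, 584 and 299 at 60 dpi. The groups did not overlap, the lowest value at 2 dpi being that of sample 4, and the mean was 3.21-fold lower at 60 dpi (log2 fold change -1.68, SE 0.37, adjusted p = 0.00174; 0.000181 with TMM factors). At 2 dpi Tnf was higher than in sham (log2 fold change 0.92, adjusted p = 0.0399), and at 14 dpi it lay at 842 to 2456. Ptgs2 gave 501, 414, 427 and 221 at 2 dpi and 109.9, 130.1 and 173 at 60 dpi, 2.84-fold lower with no overlap (adjusted p = 0.000287). The mean of Ptgs2 at 60 dpi, 138, was near that of sham, 159 (log2 fold change of 60 dpi over sham -0.19, adjusted p = 0.612). At 14 dpi Ptgs2 was as high as at 2 dpi or higher. Cebpb, a transcription factor of the acute response, was 2.32-fold lower, Csf1, the growth factor of the macrophage lineage, 3.22-fold lower, and Plau, the urokinase-type plasminogen activator, 2.31-fold lower (adjusted p = 0.000281, 6.14e-05 and 0.000588). None of these groups of values overlapped, and all 5 genes were lower under every scaling tried.

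Interleukin 1b and interleukin 6, the other classical early cytokines, did not pass the test. Il1b gave 1153, 937, 659 and 344 at 2 dpi and 453, 506 and 456 at 60 dpi, where sample 4 at 2 dpi lay below all 60 dpi samples (log2 fold change -0.71, SE 0.35, adjusted p = 0.089). Il6 ranged from 32.0 to 91.5 at 2 dpi and from 41.8 to 54.4 at 60 dpi (adjusted p = 0.297). Both were called lower with TMM factors (adjusted p = 0.00896 and 0.0392). Il1b was higher at 60 dpi than in sham (log2 fold change 0.93, adjusted p = 0.0484), a comparison that also crosses the runs. Of the 12 tested genes of the interleukin 1 family and inflammasome, 4 were higher and 2 lower (33.3% and 16.7%, against 46.2% and 10% of all genes). Without 60 dpi sample 3 only 2 were higher. Il18, a cytokine that needs cleavage by caspase 1, rose 2.03-fold (adjusted p = 0.000728), and Il1rl2, the receptor of the interleukin 36 cytokines, rose 2.57-fold (adjusted p = 0.00014), both also with TMM factors. Il1rn, the natural receptor antagonist, gave 156, 130.3, 76.3 and 52.4 at 2 dpi and 25.6, 37.6 and 45.4 at 60 dpi, without overlap, and was at least 1.80-fold lower (adjusted p = 0.0305), though the call was lost without 2 dpi sample 1 or 2 or 60 dpi sample 1 or 2 (highest adjusted p 0.115). Casp1 was above background in all 4 samples at 2 dpi (43.9 to 56.5) and in none at 60 dpi (20.5 to 36.5; adjusted p = 0.0263), and its call was lost without 2 dpi sample 3 or 60 dpi sample 2 (highest adjusted p on leaving out a sample, 0.131).

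Chemokines of the CXC class split, with 3 of 6 tested genes higher and 3 lower (50.0% each, against 46.2% and 10% of all genes). Cxcl11, among those higher, entered the test through the 60 dpi samples. With the stricter filter (above background in at least 6 samples) 1 was higher and 2 lower. Among genes above background in all 7 samples 1 was higher and 1 lower. The 3 that fell in the main test were Cxcl1 and Cxcl3, ligands of the neutrophil receptor CXCR2, and Cxcl10, a ligand of CXCR3 on T cells. Cxcl3 gave 198, 146, 101 and 49.2 at 2 dpi and 17.1, 13.1 and 26.7 at 60 dpi. It was above background in all 4 samples at 2 dpi and in none at 60 dpi, at least 2.14-fold lower (log2 fold change -2.68, SE 0.58, adjusted p = 0.00142). Cxcl1 gave 115, 109, 90.0 and 64.1 at 2 dpi and 48.0, 31.1 and 33.8 at 60 dpi, again above background at 2 dpi only, and was at least 1.64-fold lower (adjusted p = 0.0048). Within the first run both were higher at 2 dpi than in sham (log2 fold changes of 2.38 and 1.60, adjusted p = 0.00346 and 0.00223), and both were lower at 14 dpi than at 2 dpi (log2 fold changes of -3.10 and -0.88, adjusted p = 0.000539 and 0.0354). Cxcl10 gave 735, 708, 802 and 449 at 2 dpi and 339, 250.4 and 124 at 60 dpi, 2.83-fold lower without overlap (adjusted p = 0.0235), but its call was lost without 2 dpi sample 3 or 60 dpi sample 2 or 3 (highest adjusted p 0.077). At 14 dpi Cxcl10 lay at 276 to 1206. Cxcl12, a homeostatic chemokine of vessels and stroma, rose 3.52-fold with a wide spread, from 295 to 961 at 60 dpi (adjusted p = 0.00314).

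NF-kappaB, which drives many early inflammatory genes, binds sites of the kappaB type. The windows of Cxcl1 (chr5:90890995-90891294, plus strand) and Cxcl3 (chr5:90785851-90786150, plus strand), the CXC chemokines that fell within the first run as well, are shown with the letters GGAATTTCC in capitals.
Cxcl1: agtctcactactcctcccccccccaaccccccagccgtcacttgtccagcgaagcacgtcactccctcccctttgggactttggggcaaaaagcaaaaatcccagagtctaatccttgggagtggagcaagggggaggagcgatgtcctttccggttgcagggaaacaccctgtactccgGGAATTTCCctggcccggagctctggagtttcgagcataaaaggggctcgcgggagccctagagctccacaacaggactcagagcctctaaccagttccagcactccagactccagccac
Cxcl3: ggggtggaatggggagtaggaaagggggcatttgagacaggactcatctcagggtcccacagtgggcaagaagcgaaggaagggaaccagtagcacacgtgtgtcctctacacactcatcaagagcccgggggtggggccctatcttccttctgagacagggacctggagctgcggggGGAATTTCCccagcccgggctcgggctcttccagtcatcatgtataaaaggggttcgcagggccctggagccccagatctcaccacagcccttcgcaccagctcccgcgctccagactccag
The letters start 70 bases before the start in Cxcl1 and 72 bases before it in Cxcl3. They or their reverse complement GGAAATTCC were found in 0.317% of all 32851 windows and in 3 of 5 tested CXC chemokines with a window. The pattern was chosen after these windows were seen, so every share that counts Cxcl1 and Cxcl3 was in part fixed by that choice. Of 27 genes called lower that have a window 3 held it (11.1%), Cxcl1 and Cxcl3 among them. Of 124 called higher also 3 held it (2.42%), and of 120 not called 4 (3.33%). A difference between these shares was not tested.

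Of 14 tested genes of the NF-kappaB pathway, 5 were higher and 1 lower at 60 dpi (35.7% and 7.14%, against 46.2% and 10% of all genes). Without 60 dpi sample 1, 2 were lower. The subunits did not all move one way. Rela, the p65 subunit, gave 106, 131, 105 and 107 at 2 dpi and 388, 257 and 222 at 60 dpi, 2.57-fold higher without overlap (adjusted p = 7.82e-05). Nfkb2, the precursor of p52, rose 1.98-fold (adjusted p = 0.00114). Nfkb1, the precursor of p50, gave 195, 326, 194 and 231 at 2 dpi and 128, 98.2 and 114 at 60 dpi, 2.08-fold lower without overlap (adjusted p = 0.000907). All 3 kept their direction and their call with TMM factors. Nfkbia, the inhibitor that NF-kappaB induces, was 1.67-fold higher (adjusted p = 0.00669), a call lost with TMM factors (adjusted p = 0.0961).

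Chemokines of the CC class attract monocytes, lymphocytes and eosinophils. Of 11 tested, 4 were higher and none lower at 60 dpi (36.4% higher against 46.2% of all genes). With TMM factors 4 were higher and 4 lower (36.4% each, against 23.1% and 19.5%). Without 60 dpi sample 1, 1 was lower. Ccl2 and Ccl7, ligands of the monocyte receptor CCR2, were both higher. Ccl7 gave 75.7, 62.2, 50.9 and 39.1 at 2 dpi and 293, 263 and 128 at 60 dpi, 4.01-fold higher (adjusted p = 0.000345), and Ccl2 gave 414, 447, 362 and 341 at 2 dpi and 1025, 889 and 464 at 60 dpi, 2.03-fold higher (adjusted p = 0.00197; 0.0374 with TMM factors). In both genes 60 dpi sample 3 was the lowest of its group and still above every 2 dpi sample. Ccl22, a ligand of CCR4, rose 3.39-fold (adjusted p = 0.000704). Ccl11, the eosinophil attractant, was above background in no sample at 2 dpi and in all 3 at 60 dpi (67.6 to 77.9), at least 2.90-fold higher, and also needed the 60 dpi samples to pass the filter. The macrophage inflammatory proteins Ccl3 and Ccl4 overlapped between the groups and were not called (adjusted p = 0.824 and 0.316), although Ccl4 was lower with TMM factors (adjusted p = 0.0195). Of 9 tested chemokine receptors, 3 were higher and none lower (33.3% higher, against 46.2% of all genes). Without 2 dpi sample 2 the number higher was 5, and without 60 dpi sample 1 the number lower was 1. Ccr2, the monocyte receptor, rose 2.18-fold and Ccr9, a homing receptor of lymphocytes, 2.75-fold (adjusted p = 0.00412 and 0.00502).

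**Figure D3:**
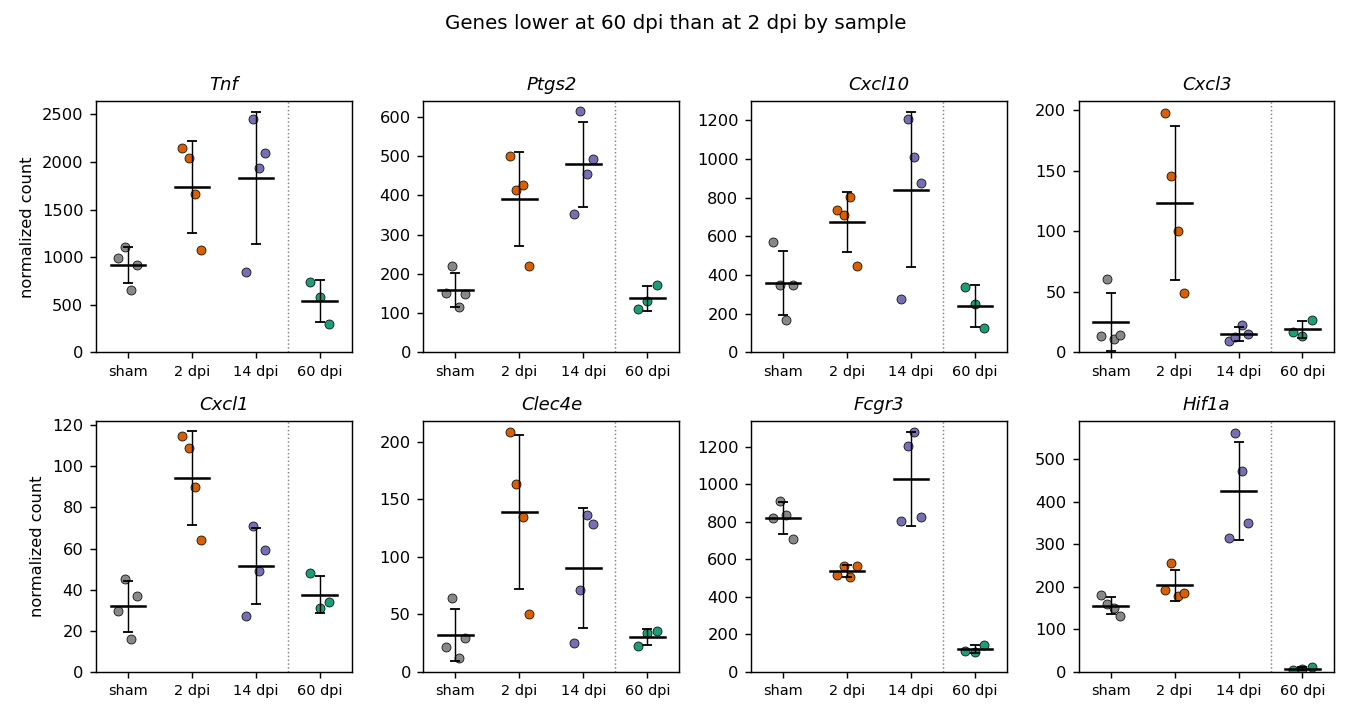
Normalized counts (y axis, linear) of 8 genes lower at 60 dpi than at 2 dpi in each sample of the 4 groups (x axis), with the mean (bar) and SD (whisker), the dotted line separating the runs. Cxcl3 and Cxcl1 had their highest means at 2 dpi, Tnf, Ptgs2 and Cxcl10 were as high or higher at 14 dpi, and Fcgr3 and Hif1a had their lowest means at 60 dpi.

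Of 17 tested genes of the TNF superfamily, Tnf included, 10 were higher and 2, Tnf and the adaptor Traf2, were lower, and with TMM factors 6 were higher and 2 lower. The shares higher were 58.8% against 46.2% of all genes, and 35.3% against 23.1% with TMM factors. Tnfsf12, the cytokine TWEAK, gave 105, 88.5, 66.4 and 75.0 at 2 dpi and 241, 179 and 257 at 60 dpi, 2.70-fold higher (adjusted p = 5.55e-05). Tnfsf10, the death ligand TRAIL, rose 3.24-fold (adjusted p = 0.000111). Tnfrsf11a, the receptor RANK, rose 1.80-fold (adjusted p = 0.000581). Tnfrsf8, the receptor CD30, gave 14.6, 12.6, 8.69 and 10.9 at 2 dpi and 99.2, 76.9 and 73.0 at 60 dpi, and was above background in none of the 12 samples of the first run and in all 3 of the second, at least 3.32-fold higher. It was the only gene of the panel with that pattern, and it passed the filter only through the samples in which it was high.

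A set of genes showed the opposite split. 8 genes were above background in all 12 samples of the first run and in none of the second, and 6 of them were called lower. The split used the limit that NEG_B raised at 60 dpi and was not recounted without that probe. Hif1a, the oxygen-regulated subunit of hypoxia-inducible factor, gave 193, 257, 179 and 185 at 2 dpi and 4.27, 6.55 and 12.5 at 60 dpi, at least 3.53-fold lower (adjusted p = 1.03e-09), and lay at 132 to 180.1 in sham and at 315 to 563 at 14 dpi. Lilrb4, an inhibitory receptor of myeloid cells, gave 472, 459.9, 396 and 351 at 2 dpi and 22.4, 13.9 and 46.3 at 60 dpi, at least 7.28-fold lower (adjusted p = 3.42e-06). Within the first run Lilrb4 was higher at 2 dpi than in sham (log2 fold change 1.50, adjusted p = 0.00327). Icam5, an adhesion molecule of neurons, was at least 1.29-fold lower, and Psmb7 at least 1.48-fold lower. Cfb, factor B of the alternative complement pathway, had 42.2 to 56.4 at 2 dpi against 8.18 to 9.79 at 60 dpi (adjusted p = 1.66e-06), and Casp1, described above, was the last of the 6. The other 2, Ikzf4 and Itga5, were not called. These genes separate the samples by run as well as by time. Clec4e, the receptor Mincle for damaged cells, was above background in all 4 samples at 2 dpi (50.0 to 209) and in none at 60 dpi (22.4 to 35.6), at least 2.41-fold lower (adjusted p = 0.0103).

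Microglia sense their surroundings through Fc receptors, the adaptor Tyrobp with its partner Trem2, purinergic enzymes and pattern receptors. Cx3cr1, Csf1r, Itgam, Trem2, Tyrobp and Entpd1, used here as microglia markers, were above background in all 7 samples. The part of other myeloid cells in these counts was not tested. Cx3cr1, the fractalkine receptor, ranged over 2666 to 3621 at 2 dpi and 3773 to 4349 at 60 dpi (log2 fold change 0.38, SE 0.16, adjusted p = 0.0555). Itgam, which encodes CD11b, ranged over 1464 to 1855 and 1308 to 1734 (adjusted p = 0.758), and Ptprc, which encodes CD45, over 326 to 379 and 376 to 474 (adjusted p = 0.0511). None of the 3 passed, although Itgam was lower with TMM factors (adjusted p = 0.0341). Csf1r, the receptor of Csf1, was 1.38-fold higher, Trem2 1.56-fold and Tyrobp 1.66-fold (adjusted p = 0.0267, 0.00406 and 0.00141), and none of these calls held with TMM factors (adjusted p = 0.718, 0.168 and 0.0515). The call of Csf1r was also lost without 2 dpi sample 1 or 3 or 60 dpi sample 1 or 2 (highest adjusted p 0.129). Entpd1, the ectoenzyme CD39 that breaks down ATP, rose 1.82-fold (adjusted p = 0.00175) and passed with TMM factors (adjusted p = 0.0304). Over the whole list of 24 tested identity and sensing genes, 10 were higher and 4 lower (41.7% and 16.7%, against 46.2% and 10% of all genes). With TMM factors 4 were higher and 7 lower (16.7% and 29.2%, against 23.1% and 19.5%).

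Fcgr3, an activating Fc receptor, was the sharpest fall among genes detected in both groups. It gave 519, 566, 504 and 564 at 2 dpi and 109.9, 108 and 145 at 60 dpi, 4.45-fold lower (log2 fold change -2.15, SE 0.20, adjusted p = 1.08e-07), and lay at 707 to 914 in sham and at 803 to 1281 at 14 dpi. The inhibitory receptor Fcgr2b moved the other way, 1.49-fold higher (adjusted p = 0.00561), a call lost with TMM factors (adjusted p = 0.25). Fcgr1 and Fcgr4 were not called (adjusted p = 0.439 and 0.0787), though both were lower with TMM factors. Itgb2, the beta chain that pairs with CD11b, gave 951, 1035, 1006 and 799 at 2 dpi and 426, 490.1 and 334 at 60 dpi, 2.28-fold lower (adjusted p = 4.49e-05), under every scaling tried. Tlr2, a receptor for bacterial lipoproteins and damage signals, was lower at 346 to 480.1 against 490.0 to 779.8 (adjusted p = 0.0216), a call lost without 2 dpi sample 2 or 60 dpi sample 3 (highest adjusted p 0.0948). The nucleic acid receptor Tlr3 was 2.02-fold higher (adjusted p = 0.00068) and passed with TMM factors. Tlr8, which needed the 60 dpi samples to pass the filter, was at least 2.69-fold higher. Ly86, also called MD-1, which partners a Toll-like receptor homolog, was 1.81-fold lower (adjusted p = 0.000264). Of 17 tested Toll-like receptors and adaptors, 9 were higher and 2 lower, or 4 and 2 with TMM factors. The shares higher, 52.9% and 23.5%, lay near the 46.2% and 23.1% of all genes.

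TGF-beta keeps microglia in their resting identity. Of 9 tested genes of its pathway, 6 were higher and none lower at 60 dpi, 66.7% higher against 46.2% of all genes, and with TMM factors 3 were higher (33.3% against 23.1%) and 1 lower. Tgfbr2, the ligand-binding receptor, gave 647, 803, 704 and 768 at 2 dpi and 1399.7, 1153 and 1201 at 60 dpi, 1.71-fold higher without overlap (adjusted p = 0.000874; 0.0493 with TMM factors). Tgfbr1, its signaling partner, gave 922, 1363, 933 and 1118 at 2 dpi and 2055, 1814 and 1616 at 60 dpi, 1.69-fold higher (adjusted p = 0.0035), a call lost with TMM factors (adjusted p = 0.104). Both receptors were lower at 2 dpi than in sham (log2 fold changes of -0.66 and -0.96), and at 60 dpi they did not pass the test against sham (log2 fold changes of 0.12 and -0.20). Smad5, a signaling factor of the related BMP branch, rose 2.15-fold, and the ligand Tgfb2 rose 3.39-fold from counts near background (adjusted p = 0.000662 and 0.00116). Tgfb1 itself gave 532, 652, 522 and 533 at 2 dpi and 643, 547 and 578 at 60 dpi and did not pass (log2 fold change 0.07, adjusted p = 0.711), its direction turning with DESeq2's own size factors. Smad3 was not called either (adjusted p = 0.145).

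Lysosomal and scavenger genes were mixed. Of 11 tested 7 were higher and 2 lower (63.6% and 18.2%, against 46.2% and 10% of all genes). With TMM factors, however, 1 was higher and 2 lower (9.09% and 18.2%, against 23.1% and 19.5%). Ctss, the cathepsin that trims the invariant chain, was 1.46-fold higher (adjusted p = 0.0048), about as much as the median gene, and was not called with TMM factors (adjusted p = 0.361). The scavenger receptor Msr1 gave 193, 163, 146 and 156 at 2 dpi and 87.5, 77.7 and 57.8 at 60 dpi, 2.22-fold lower (adjusted p = 0.000724), and was above background in 2 of 3 samples at 60 dpi. It was higher at 2 dpi than in sham (log2 fold change 1.38, adjusted p = 0.0013) and near sham at 14 dpi (mean 64.3 against 64.2). Cybb, the catalytic subunit of the phagocyte oxidase, gave 115, 83.6, 179 and 52.4 at 2 dpi and 352, 579 and 417 at 60 dpi, 4.19-fold higher (adjusted p = 0.000427; 0.00783 with TMM factors).

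Complement proteins tag material for uptake. Of 28 complement genes on the panel, 11 were tested, and 3 were higher and 3 lower (27.3% each, against 46.2% and 10% of all genes). With TMM factors none was higher and 5 were lower (0.0% and 45.5%, against 23.1% and 19.5%). Without 60 dpi sample 2 only 1 was higher. C3, the central component, gave 137, 111, 112 and 45.3 at 2 dpi and 198, 310.1 and 226 at 60 dpi, 2.42-fold higher (adjusted p = 0.0145), a call lost with TMM factors (adjusted p = 0.101) and without 60 dpi sample 2 (adjusted p = 0.0557). C4a, whose probe may also read the near-identical C4b, was 1.72-fold higher (adjusted p = 0.013; 0.193 with TMM factors), and its call was also lost without 60 dpi sample 3 (adjusted p = 0.0626). C1qa, a subunit of the initiating C1q, was 1.28-fold higher (adjusted p = 0.0343), less than the median gene, and its call was lost with TMM factors (adjusted p = 0.795) and without any of 5 single samples, all but 2 dpi sample 2 and 60 dpi sample 3 (highest adjusted p 0.13).

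**Figure D4:**
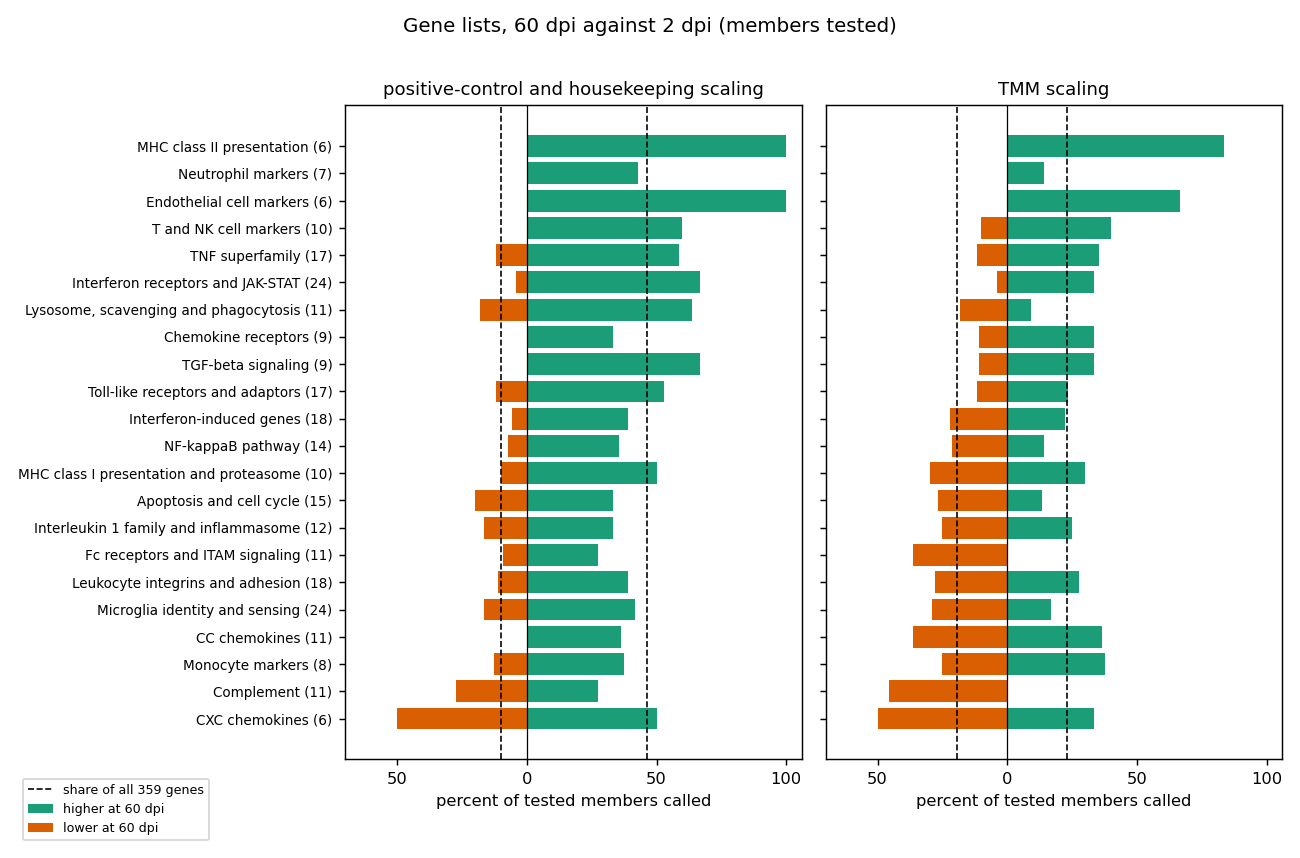
Percent of the tested members of each gene list (number tested in brackets, y axis) called higher (right of 0) or lower (left of 0) at 60 dpi, under the control-based scaling (left panel) and TMM factors (right panel). Dashed lines mark the shares over all 359 genes (46.2% higher and 10% lower; 23.1% and 19.5% with TMM factors), and lists with 1 or 2 tested members are not drawn. Among the lists drawn, MHC class II has the highest share called higher with TMM factors and ties with the endothelial markers under the control-based scaling.

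Of 15 tested apoptosis and cell cycle genes, 5 were higher and 3 lower (33.3% and 20.0%, against 46.2% and 10% of all genes). With TMM factors 2 were higher and 4 lower (13.3% and 26.7%, against 23.1% and 19.5%). Without 60 dpi sample 1 only 2 were higher, and without 2 dpi sample 3 only 3. Bax, the pore-forming effector of mitochondrial apoptosis, was above background in all 4 samples at 2 dpi (40.9 to 78.8) and in none at 60 dpi (20.5 to 28.5; adjusted p = 0.00165). Cradd, an adaptor of caspase 2, rose 3.51-fold and Xbp1, a transcription factor of the unfolded protein response, 1.95-fold (adjusted p = 8.14e-05 and 0.000615), and both passed with TMM factors. Itga4, the integrin chain that binds Vcam1, rose 2.49-fold (adjusted p = 0.00206). Of 18 tested integrin and adhesion genes 7 were higher and 2 lower (38.9% and 11.1%, against 46.2% and 10% of all genes).

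Several genes outside these groups were among the largest rises. Il13, a cytokine of type 2 immunity, gave 65.9, 74.9, 58.3 and 58.6 at 2 dpi and 349.9, 218 and 272 at 60 dpi, 4.35-fold higher (adjusted p = 3.34e-05). Phlpp1, a phosphatase that acts on AKT, rose 3.67-fold, and Fkbp5, a co-chaperone that glucocorticoids induce, rose 2.65-fold (adjusted p = 0.000136 and 9.28e-05). Defb1, a defensin, was above background in no sample at 2 dpi and in all 3 at 60 dpi, at least 3.19-fold higher (adjusted p = 0.000704). Among the falls, Il21r, the interleukin 21 receptor, was 2.16-fold lower (adjusted p = 0.000294). Prim1, a subunit of the DNA primase, ranged over 25.3 to 43.0 at 2 dpi and 8.01 to 15.5 at 60 dpi, where it was not above background in any sample (adjusted p = 0.0043).

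Marker genes of other cell types also differed between the groups, and their part in the results above was not tested. The summed level of the 7 tested neutrophil markers was 688 to 9688 at 2 dpi, highest in sample 3, and 8910 to 39700.0 at 60 dpi, highest in sample 2. S100a8, the alarmin of neutrophils and early monocytes, gave 929, 649, 4171 and 322 at 2 dpi and 4469, 19855 and 5648 at 60 dpi and did not pass (log2 fold change 2.72, SE 1.26, adjusted p = 0.0825). Camp, a granule peptide of neutrophils, gave 58.6, 11.7, 759 and 27.4 at 2 dpi and 695, 3360.2 and 782 at 60 dpi (adjusted p = 0.115). Of these 7 markers 3 were higher (42.9%, against 46.2% of all genes) and 1 also with TMM factors (14.3%, against 23.1%). The number higher ranged from 0 to 6 over the alternatives run, with 6 under the additive-background model, none with the negative controls subtracted and 1 without 60 dpi sample 2. Ltf and Ctsg, among those higher, were above background in 1 sample of each group and left the test without 2 dpi sample 3 or 60 dpi sample 2.

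All 6 tested endothelial markers were higher, against 46.2% of all genes. With TMM factors 4 of them were higher as well (66.7%, against 23.1% of all genes). The summed level of the 6 markers was 686 to 846 at 2 dpi and 1123 to 2909 at 60 dpi. Cdh5, the cadherin of endothelial junctions, gave 41.5, 41.8, 54.6 and 47.7 at 2 dpi and 139, 88.4 and 316 at 60 dpi (adjusted p = 0.000812), and Abcb1a, the efflux pump of the blood-brain barrier, gave 96.4, 100.1, 115 and 166 at 2 dpi and 395, 203 and 930.0 at 60 dpi (adjusted p = 0.0041). In both, 60 dpi sample 3 was the highest and sample 2 the lowest of the group, an order that Pecam1 shared (193 to 625). Vcam1, which macrophages also express, rose 3.22-fold (adjusted p = 9.28e-05).

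Of 35 T and NK cell markers on the panel 27, among them Cd3e, Cd4 and Cd8a, were above background in none of the 7 samples. Of the 10 tested, 6 were higher (60.0%, against 46.2% of all genes) and none lower, and without 60 dpi sample 1 only 3 were higher, with a summed level of 323 to 423 at 2 dpi and 648 to 959 at 60 dpi. Cd3d, a chain of the T cell receptor complex, gave 36.6, 36.0, 28.5 and 29.7 at 2 dpi and 166, 116 and 147 at 60 dpi, 4.38-fold higher (adjusted p = 7.4e-05; 5.97e-05 with TMM factors). Il7r, the interleukin 7 receptor, rose 2.07-fold (adjusted p = 0.00124). Klrk1, the receptor NKG2D, was above background in 2 of 3 samples at 60 dpi and in none at 2 dpi, at least 2.32-fold higher, and needed the 60 dpi samples to pass the filter. Of 10 B cell markers 8, Ms4a1 and Cd79a included, were above background in none of the 7 samples. Of the 2 tested 1, Cd22, was higher without overlap (50.0%, against 46.2% of all genes), also with TMM factors. The summed level of these 2 was 49.2 to 70.0 at 2 dpi and 85.9 to 137 at 60 dpi. Cd163, a scavenger receptor of border-associated macrophages, gave 56.1, 59.3, 25.4 and 16.4 at 2 dpi and 202, 151 and 93.4 at 60 dpi, 3.78-fold higher without overlap (adjusted p = 0.000693). It was the only tested member of the 4 border macrophage markers. Of 8 monocyte markers 3 were higher and 1, Cd36, was lower (37.5% and 12.5%, against 46.2% and 10% of all genes). The call of Cd36 was lost without any single sample but 2 dpi sample 4 (highest adjusted p 0.128). The summed level of the monocyte markers was 1294 to 1663 at 2 dpi and 1097 to 1670.4 at 60 dpi.

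**Figure D5:**
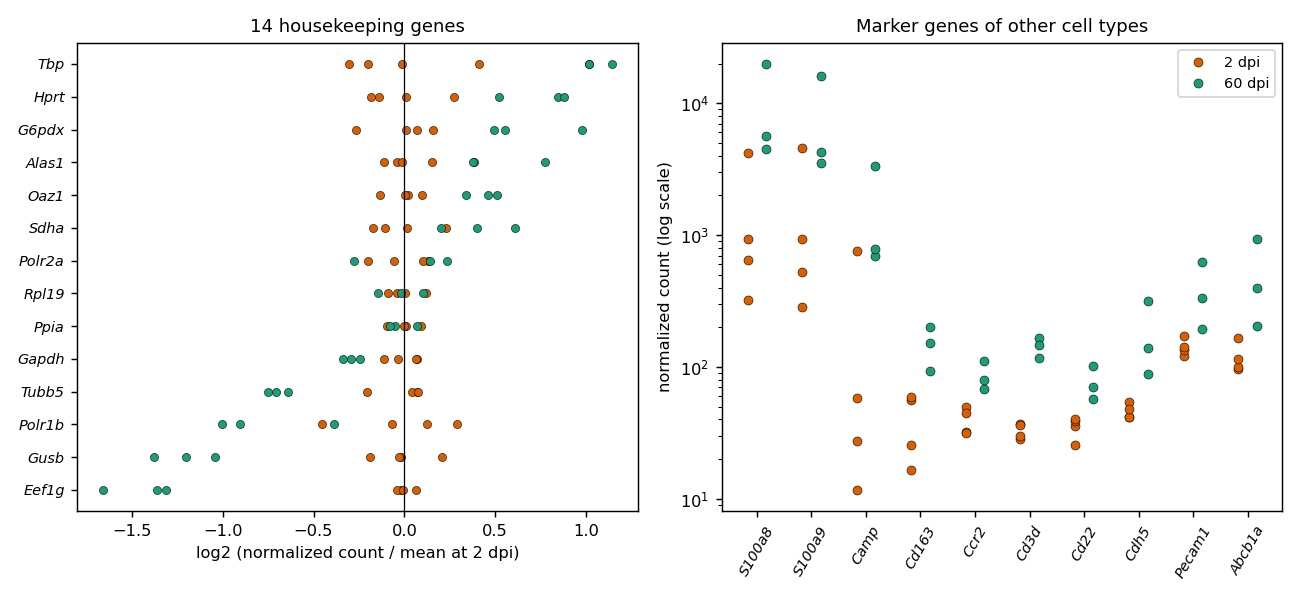
Left, the log2 ratio of each sample's normalized count to the 2 dpi mean (x axis) for the 14 housekeeping genes (y axis); right, normalized counts (y axis, log scale) of marker genes of other cell types, with 2 dpi in orange and 60 dpi in green. Housekeeping genes spread on both sides of 0 at 60 dpi, from Eef1g at -1.44 to Tbp at 1.06, and the markers overlap between groups for S100a9 and Camp but not for Cd3d, Cd163 or Cdh5.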

How the data were processed

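Raw reporter counts of 547 endogenous genes, 14 housekeeping genes, 8 negative and 6 positive controls were deposited for 15 samples as estimated counts with no scaling (whole numbers for every probe). The deposited signal table was made by the authors with NanoStringNorm, and all 8205 of its values were rebuilt within 0.001 by subtracting each sample's mean negative control, flooring at 0 and scaling to the housekeeping sum. Columns of other samples numbered 0. NanoStringDiff, the model of the study's methods, which also adjusts for background, could not be run, so the negative binomial model of edgeR 4.0.16 (R 4.3.3) was used on the raw counts, with offsets from positive-control and housekeeping factors.

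All 15 samples entered the fit with 1 mean per group. Genes above the background limit in at least 3 samples were tested with a two-sided quasi-likelihood test, and p-values were adjusted by Benjamini-Hochberg over the 359 tested genes. No term for run could be fitted. Normalized counts are raw counts divided by the combined factor. Alternatives were TMM, housekeeping or positive-control factors alone, DESeq2 1.42.0, subtraction of the negative controls, an additive-background model, other filters, other sample sets, limma 3.58.1 on the deposited signal plus 1 (log2), and leaving out each sample. The scripts were tested on simulated data.

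Gene lists and the rule for named genes were chosen with earlier results of these data known. The rule took the 12 largest rises and falls without overlap, up to 4 called members per list, up to 6 genes a direction detected in 1 group alone, and 15 genes of prior interest. Some genes were named after their values were seen: Camp, Ccl3, Ccl4, C1qa, Csf2rb, Entpd1, Fcgr1, Fcgr4, Fkbp5, H2-DMa, H2-Ob, Ikzf4, Itga5, Pecam1, Psmb7, S100a8, S100a9, Tlr2, Traf2 and genes named as not above background. Promoter windows came from RefSeq (GRCm38.p6). Probe sequences were not used here, so cross-hybridization between close relatives (the H2, Fcgr, Lilrb4 and C4 genes) was not checked. Some tested genes are not reported by name here.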

Additional observations from a re-analysis of the deposited data

Results flagged for a closer look

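For 6 of the 98 named genes, 1 sample at 2 dpi lay far from the other 3 of its group by Dixon's criterion, which chance meets in about 1 of 20 groups. Blnk, an adaptor of B cell and myeloid receptors, gave 285.9 in sample 2 against 221 to 227 in the others. Rela gave 131 in sample 2 against 105 to 107, and Tgfb1 gave 652 in sample 2 against 522 to 533. Defb1 gave 23.3 in sample 2 against 20.3 to 20.7, all below the background limit. Ltf, the neutrophil granule protein lactoferrin, gave 27.3 in sample 3 against 3.13 to 6.81. Vcam1 was low in sample 4, at 32.0 against 53.5 to 57.3.

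Negative control NEG_B, which has no target in the RNA, reached 72 raw counts in 60 dpi sample 3 and at least 50 in the other samples of that group, against at most 12 in the other groups.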

How the results depend on the processing

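The main counts of 166 higher and 36 lower genes became 83 and 70 with TMM factors, 28 and 27 with positive-control factors alone, and 72 and 77 under DESeq2's size factors and test. After subtraction of the negative controls 119 genes were higher and 56 lower, and with the additive-background model 162 and 70. Restricting the test to genes above background in all 7 samples, chosen after seeing the data, gave 137 higher and 17 lower genes; fewer genes were tested there. Leaving out 1 sample at a time gave 118 to 169 higher and 29 to 37 lower genes, and 103 and 27 of the calls were kept without each sample. Both counts stayed within 1.5 times under housekeeping factors alone (163 and 37), no filter (216 and 36), a stricter filter (150 and 33), a background limit without NEG_B (173 and 36), only the 2 dpi and 60 dpi samples (176 and 38), no 14 dpi samples (159 and 35) and limma on the authors' values (164 and 54). Of 98 named genes, 14 lost their call with TMM factors, 43 with positive-control factors alone and 17 with DESeq2. Tgfb1, not called in the main test at 0.07, reversed to -0.37 on the log2 scale with DESeq2 (adjusted p = 0.0119). The median over all genes tested was 0.49 in the main test and 0.04 with DESeq2. The cause of the reversal was not tested. The number of samples, 4 and 3, and the higher background limit at 60 dpi restrict what could be detected for genes of low count.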
